A study of Mus musculus with 114 samples.

Results

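The comparison described here is that of high fat diet (HFD) against chow diet (CD) after 20 weeks of feeding, in adipocytes of the perigonadal fat depot of male C57BL/6 mice (C57BL/6J in the study's methods). It took in the 6 HFD mice and the 6 CD mice of that time point, 12 of the 38 mice in the series, and the 10361 of 29132 listed genes whose mean log2(CPM + 1) over these 12 mice was above 2. CPM is the read count of a gene scaled to a library total of 1000000 reads. Mice of both groups started their diet at 6 weeks of age, had no engineered allele and differed in their labels by diet alone. The study's methods name alternative control chow diets and do not say which of them each CD group ate. They also state that mice were fasted for 6 hours in the morning of the final day. Companion groups on the same diets for 8 weeks (6 CD, 6 HFD) and 34 weeks (8 CD, 6 HFD) were used only to ask whether the diet difference at 20 weeks was different there. Each library was made from polyA RNA of the floating fraction left after collagenase digestion of the depot, so the cell type rests on flotation and not on a marker or a sort, and cells that stick to adipocytes or carry enough lipid to float stay with it.

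White adipocytes store fatty acids as triglyceride under the control of insulin and release them by lipolysis when catecholamines act on beta-adrenergic receptors. They also secrete adipokines, oxidise fatty acids and branched-chain amino acids in their mitochondria, and sit in a basement membrane and a collagen network that they help to make. In the perigonadal depot of male mice, long feeding of fat enlarges the adipocytes and brings in macrophages, many of which gather around dying adipocytes, take up lipid and become rich in lysosomes.

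The 12 libraries held 13091365 to 14961360 reads on genes, so that 1 read was worth 0.0668 to 0.0764 CPM. The defining adipocyte markers Adipoq, Plin1 and Cidec were read in every mouse, with Adipoq at 3163 CPM or more, and the 15 adipocyte markers summed 46838 to 72169 CPM in CD mice and 28145 to 40876 CPM in HFD mice. Cfd alone gave 13075 to 27570 CPM of these sums in CD mice and 729 to 2540 CPM in HFD mice. In the diet fit described below, 9 of the 15 were lower in HFD and 2 were higher, and Pparg, Cebpa, Fabp4 and Cidea were not called. The 14 macrophage markers summed 1099 to 3838 CPM in CD mice and 5009 to 10207 CPM in HFD mice. Markers of T cells were nearly absent, with Cd3e at 0.368 CPM or less and Cd3d at 0.0764 CPM or less in all 12 mice. Epididymis and testis markers summed at most 16.1 CPM in any mouse.

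A few libraries stood apart from the rest of their groups. On a line that is 0 at the CD mean and 1 at the HFD mean of all tested genes, CD mouse 1 lay at 0.49 and CD mouse 3 at -0.36, while the other CD mice lay between -0.09 and 0.08. HFD mouse 4 lay at 0.72 and the other HFD mice between 0.94 and 1.10. CD mouse 1 also had the highest macrophage sum among CD mice (3838 CPM, against 1991 CPM or less in the others) and the lowest adipocyte sum, and HFD mouse 4 had the lowest macrophage sum (5009 CPM) and the highest adipocyte sum (40876 CPM) among HFD mice. In a floating fraction, fewer cells of a type and less RNA per cell of that type cannot be told apart.

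**Figure D1:**
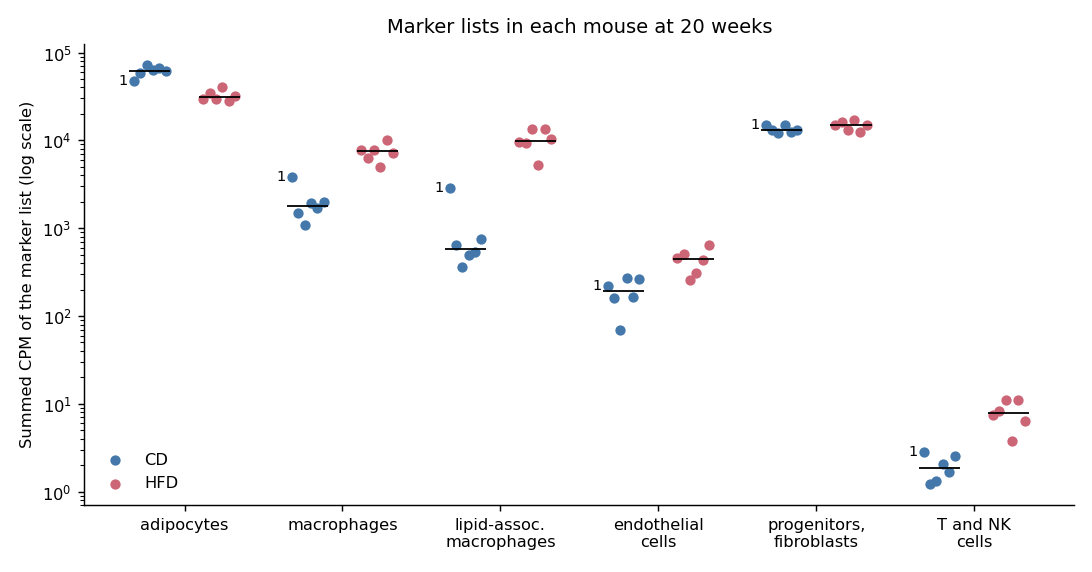
Summed CPM of the marker genes of 6 cell types (log axis) in each of the 6 CD and 6 HFD mice of 20 weeks, with 1 point per mouse, a line at each median and the number 1 beside the point of CD mouse 1. The adipocyte sums of HFD mice lie below all CD sums and the macrophage sums above them, and CD mouse 1 is the CD mouse nearest to the HFD mice in both. Cfd is a large part of the adipocyte sums of CD mice and a small part of those of HFD mice. Gsn, which was not called, makes up most of the progenitor and fibroblast sums in both diets. Those sums therefore do not show the rises of the lower markers on that list.

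In a limma fit on the 12 mice, 6727 of the 10361 genes (64.9%) differed between the diets at an adjusted p (Benjamini-Hochberg) below 0.05, and such genes are said below to have risen or fallen. The number higher in HFD was 4383 (42.3% of the genes tested) and the number lower was 2344 (22.6%). Differences of at least 2-fold were found for 1511 genes that rose and 384 that fell, and of at least 4-fold for 614 and 52. In 26.1% of all tested genes every HFD mouse was above every CD mouse, and in 11.2% every HFD mouse was below. Counts in the gene lists below are to be read against these shares of all tested genes. The level filter took the mean over both diets, so a gene near the floor in 1 diet could pass it through its level in the other. The median log2 fold change over all tested genes was 0.13, and with TMM scaling factors, which equalise the bulk of the genes between mice, it was -0.06, a shift of -0.19. The higher share of the calls fell with it from 65.2% to 45.0% (3133 higher, 3833 lower), and no gene called one way was called the other way. Rises smaller than this shift therefore need not keep their direction under TMM scaling. Counts of the gene lists under TMM scaling are to be read against 3133 higher and 3833 lower of 10361. Without CD mouse 1 the call count was 6964, without CD mouse 3 it was 6571 and without HFD mouse 4 it was 6869, and 6556 of the 6727 genes were called the same way without CD mouse 1. Because macrophage markers moved with the diet, a further fit also held the mean of these markers, and it is called the macrophage-adjusted fit below. The summed macrophage markers did not overlap between the diets, so this fit leaves little of the diet contrast. It called 1410 of the 10361 genes (927 higher, 483 lower). Its count is given beside each gene group and is to be read against 927 and 483 of 10361 for all tested genes. Beyond that fit the part of macrophages and other cells in the differences was not tested.

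**Figure D2:**
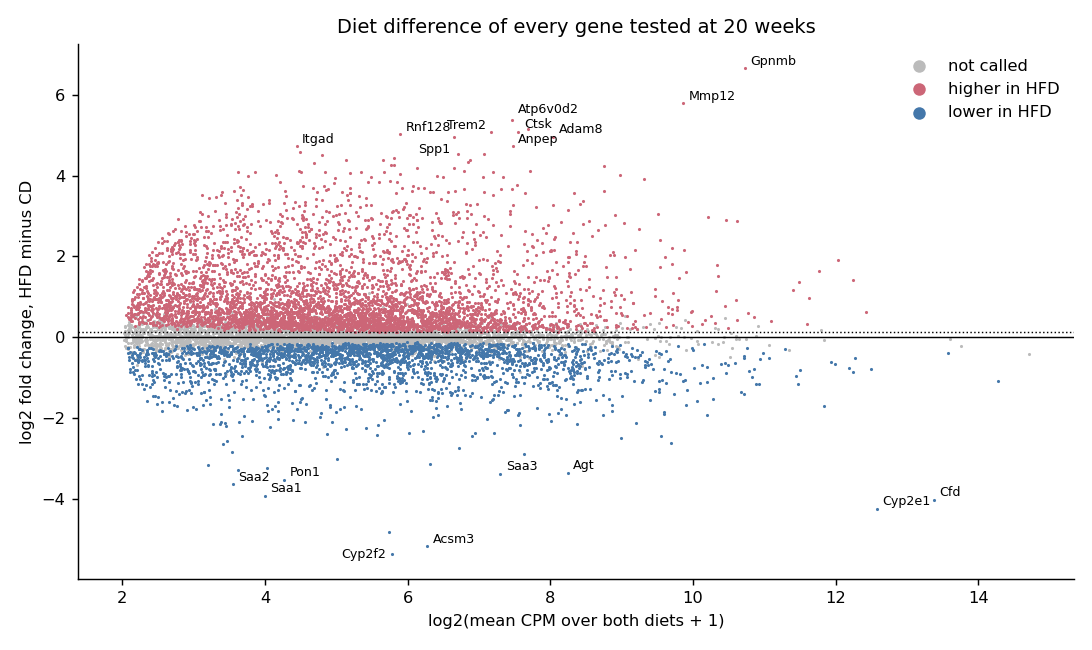
Log2 fold change of HFD over CD at 20 weeks (vertical axis, on the log2(CPM + 1) scale) against log2(CPM + 1) of the mean level (horizontal axis) for the 10361 genes tested, with the 4383 genes called higher and the 2344 called lower in colour and genes of the largest changes without overlap between the diets named. Rises reach further from 0 than falls, with 614 against 52 genes past 4-fold.

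Among genes whose diets did not overlap, 6 of the 10 largest rises (Gpnmb, Mmp12, Atp6v0d2, Ctsk, Trem2 and Spp1) were of genes on the list of lipid-associated macrophage markers. The lists were chosen with earlier results of these data known, so this overlap is description only. Which cells of the floating fraction held these transcripts was not tested. Gpnmb, a lysosomal membrane glycoprotein (chr6:49036518-49058182, GRCm38), was at 8.17 to 540.0 CPM in CD mice (median 16.7) and at 1550.3 to 4466 CPM in HFD mice (median 3247), and it rose 101-fold (log2FC 6.66 ± 0.84, adjusted p = 2.8e-05, where log2FC is the log2 fold change of HFD over CD, ± is the standard error of the fit and folds are of CPM + 1). The lowest HFD mouse was above the highest CD mouse, which was mouse 1, and the other CD mice were far below it. Mmp12, the macrophage elastase, ranged over 8.1 to 540.2 CPM in CD mice (median 13.7) and over 617 to 3176 CPM in HFD mice (median 1626) (log2FC 5.78 ± 0.86, adjusted p = 9.0e-05). Trem2, a lipid receptor of macrophages, had a median of 4.87 CPM in CD mice (lowest 2.13, highest 56.7) and of 283 CPM in HFD mice (lowest 158, highest 376) (log2FC 5.07 ± 0.57, adjusted p = 1.4e-05). The diets did not overlap in either gene, and CD mouse 1 was again the highest CD mouse. Atp6v0d2, a subunit of the proton pump of lysosomes and osteoclasts, was at 2.43 to 74.3 CPM in CD mice (median 4.04) and at 215 to 464 CPM in HFD mice (median 329.6) (log2FC 5.37 ± 0.64, adjusted p = 1.9e-05). Ctsk, a collagen-cleaving cathepsin, ranged over 2.35 to 78.9 CPM in CD mice (median 5.87) and over 153 to 490.5 CPM in HFD mice (median 352) (log2FC 5.08 ± 0.63, adjusted p = 2.5e-05). HFD mouse 4 was the lowest HFD mouse for Ctsk, apart from the other 5. Spp1, osteopontin, had a median of 3.05 CPM in CD mice (lowest 0.515, highest 93.3) and of 155 CPM in HFD mice (lowest 137, highest 301) (log2FC 4.95 ± 0.77, adjusted p = 0.00013). Itgax, the integrin CD11c and a marker on the same list, rose by as much (log2FC 5.15 ± 0.78, adjusted p = 0.00011) but is not counted in the 10, because CD mouse 1 (145.81 CPM) was above the lowest HFD mouse (139.98 CPM). Without CD mouse 1 the log2 fold change was 7.48 for Gpnmb, 6.63 for Mmp12, 6.02 for Atp6v0d2, 5.68 for Ctsk and 5.76 for Spp1. Each of these folds was more than 1.5 times as large. For Trem2 the log2 fold change without that mouse was 5.64, a smaller gain.

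The remaining 4 of these 10 rises were on no marker list. Itgad, the integrin alpha D chain of leukocytes, ranged over 0.294 to 0.832 CPM in CD mice (median 0.377) and over 20.6 to 57.6 CPM in HFD mice (median 42.8) (log2FC 4.72 ± 0.24, adjusted p = 2.2e-07). Its level in CD mouse 1 was near that of the other CD mice, unlike the genes above, and it was the only gene of the 10 whose adjusted p in the macrophage-adjusted fit was below 0.001 (log2 fold change 4.57, adjusted p = 0.00060). Adam8, a membrane metalloprotease, was at 4.71 to 147 CPM in CD mice (median 10.2) and at 298 to 637 CPM in HFD mice (median 531) (log2FC 4.96 ± 0.62, adjusted p = 2.7e-05). Anpep, aminopeptidase N, had a median of 8.42 CPM in CD mice (lowest 3.02, highest 96.4) and of 346 CPM in HFD mice (lowest 187, highest 423) (log2FC 4.72 ± 0.61, adjusted p = 3.3e-05). Rnf128, a ubiquitin ligase first described in T cells, ranged over 0.611 to 27.1 CPM in CD mice (median 1.1) and over 54 to 178 CPM in HFD mice (median 108) (log2FC 5.02 ± 0.61, adjusted p = 2.2e-05). In Adam8, Anpep and Rnf128 the highest CD value again came from mouse 1, without which their log2 fold changes were 5.62, 5.32 and 5.64. In the macrophage-adjusted fit 4 of the 10 were called (Itgad, Trem2, Atp6v0d2 and Ctsk). The other 6 had adjusted p values from 0.057 for Adam8 to 0.36 for Spp1.

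Under the same limit the largest falls were in enzymes and secreted proteins, and 1 of the 10, Cfd, stood on the adipocyte marker list. Cyp2f2, a cytochrome P450 (chr7:27119955-27133660), was at 28.1 to 216 CPM in CD mice (median 91.6) and at 0.484 to 2.34 CPM in HFD mice (median 1.06), and it fell with a log2 fold change of -5.38 ± 0.41 (adjusted p = 2.4e-06). All HFD mice were far below all CD mice. Acsm3, a mitochondrial acyl-CoA synthetase for medium-chain fatty acids, ranged over 22.2 to 278 CPM in CD mice (median 151) and over 0.836 to 4.11 CPM in HFD mice (median 2.51) (log2FC -5.18 ± 0.51, adjusted p = 8.2e-06). In both genes HFD values were close to the floor of what was tested. Cyp2e1, a cytochrome P450 that oxidises ethanol and ketones, was by contrast an abundant transcript and was at 4694 to 18271 CPM in CD mice (median 11443) and at 299 to 1082 CPM in HFD mice (median 617) (log2FC -4.24 ± 0.35, adjusted p = 3.6e-06). Cfd, adipsin or complement factor D (chr10:79890853-79892655), ranged over 13075 to 27570.0 CPM in CD mice (median 19520.0) and over 729 to 2540.4 CPM in HFD mice (median 1132) (log2FC -4.03 ± 0.28, adjusted p = 1.6e-06). Both abundant genes were lower in every HFD mouse than in any CD mouse. Agt, angiotensinogen, had a median of 537 CPM in CD mice (lowest 461, highest 623) and of 55.4 CPM in HFD mice (lowest 29.3, highest 100.4) (log2FC -3.35 ± 0.22, adjusted p = 1.4e-06). Pon1, a paraoxonase carried on lipoproteins, was at 8.05 to 67 CPM in CD mice (median 28.5) and at 1.06 to 2.41 CPM in HFD mice (median 1.5) (log2FC -3.54 ± 0.39, adjusted p = 1.3e-05).

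A further 3 of the 10 were serum amyloid A genes, which encode acute phase apolipoproteins. Saa3, the member known from adipocytes and macrophages, had a median of 222 CPM in CD mice (lowest 145, highest 581) and of 25.6 CPM in HFD mice (lowest 16.9, highest 29.8) (log2FC -3.38 ± 0.28, adjusted p = 3.8e-06). Saa1 was at 7.42 to 64.1 CPM in CD mice (median 28.8) and at 0.345 to 1.13 CPM in HFD mice (median 0.538) (log2FC -3.93 ± 0.39, adjusted p = 8.2e-06) and Saa2 ranged over 5.81 to 41.9 CPM in CD mice (median 18.1) and over 0.138 to 0.993 CPM in HFD mice (median 0.481) (log2FC -3.65 ± 0.37, adjusted p = 9.1e-06), and because their sequences are nearly the same, reads could have been split between them. The diets did not overlap in any of the 3. Each of the largest falls named here also had an adjusted p below 0.05 in the macrophage-adjusted fit, with log2 fold changes from -4.05 for Saa3 to -1.77 for Pon1.

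Markers of cells other than adipocytes rose widely. Of the 14 macrophage markers 11 rose and 1 fell, against 42.3% and 22.6% of all tested genes, and the 13 lipid-associated macrophage markers all rose, with summed levels of 358 to 2858 CPM in CD mice (744 CPM or less without mouse 1) and 5292 to 13617 CPM in HFD mice. Lyz2, lysozyme, was at 130.1 to 1091 CPM in CD mice (median 328) and at 1806 to 3517 CPM in HFD mice (median 2663) (log2FC 2.88 ± 0.38, adjusted p = 4.0e-05). Cd163, the haemoglobin scavenger receptor of resident macrophages, was the marker that fell, and it ranged over 40.03 to 181 CPM in CD mice (median 118) and over 26.6 to 80.4 CPM in HFD mice (median 36) (log2FC -1.35 ± 0.38, adjusted p = 0.0069). Cd163 values overlapped between the diets, while those of Lyz2 did not. Mertk and Cd14, a receptor for dying cells and a co-receptor for bacterial lipopolysaccharide, had log2 fold changes of -0.22 ± 0.17 and 0.36 ± 0.34 and did not pass the test. Of 13 endothelial markers 12 rose and none fell, with sums of 68.6 to 268 CPM in CD mice and 257 to 652 CPM in HFD mice. Of 15 markers of progenitors and fibroblasts 12 rose and 1 fell, of 10 markers of mural and smooth muscle cells 7 rose and 1 fell, and of 5 mesothelial markers 1 rose. The mast cell proteases Cpa3, Mcpt4 and Cma1 were below the level tested, at 0.420 CPM or less in every CD mouse and at 1.80 to 12.8 CPM in every HFD mouse.

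Genes of adipocyte identity showed small differences in their regulators and large ones in their secreted products. Of 13 transcription factors of adipocytes tested 1 rose and 6 fell, with a median log2 fold change of -0.34, and without CD mouse 1 none rose and 9 fell. Pparg, the master regulator of the fat cell, was at 127 to 231 CPM in CD mice (median 174) and at 149 to 187 CPM in HFD mice (median 159) (log2FC -0.05 ± 0.13, adjusted p = 0.77). Cebpa, its partner, ranged over 368 to 580.0 CPM in CD mice (median 432) and over 376 to 425 CPM in HFD mice (median 389) (log2FC -0.20 ± 0.11, adjusted p = 0.12). All HFD mice lay inside the CD range for both genes, and Cebpa had a log2 fold change of -0.40 with an adjusted p of 0.0085 under TMM scaling. Mlxipl, the glucose-sensing factor ChREBP, had a median of 91.9 CPM in CD mice (lowest 66.3, highest 138) and of 46.5 CPM in HFD mice (lowest 25.7, highest 70.6) and fell (log2FC -1.13 ± 0.23, adjusted p = 0.0009). Esrra, a nuclear receptor for mitochondrial genes, was the member that rose, by 0.31 ± 0.12 (adjusted p = 0.036), and its adjusted p under TMM scaling was 0.40. In the macrophage-adjusted fit no gene of this list was called.

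Of 13 adipokines and secreted factors 2 rose and 8 fell (median -0.59), and 7 of them had every HFD mouse below every CD mouse (11.2% of all tested genes). Lep, leptin, the satiety hormone made in proportion to fat mass (chr6:29060221-29073876), was at 38.2 to 674 CPM in CD mice (median 380.3) and at 1008 to 3911 CPM in HFD mice (median 2443) and rose 7.44-fold (log2FC 2.90 ± 0.60, adjusted p = 0.001). CD mouse 3 was far below the other CD mice, and all HFD mice were above all CD mice. Adipoq, adiponectin, ranged over 5052 to 6652 CPM in CD mice (median 5881) and over 3163 to 4409 CPM in HFD mice (median 3289) (log2FC -0.75 ± 0.12, adjusted p = 0.00011). Retn, resistin, had a median of 1889 CPM in CD mice (lowest 1255, highest 2149.9) and of 495 CPM in HFD mice (lowest 341, highest 622) and fell (log2FC -1.92 ± 0.16, adjusted p = 3.8e-06). Neither gene overlapped between the diets. The summed level of the list went from 36924 to 57194 CPM in CD mice to 21742 to 24661 CPM in HFD mice. In all, 4 of these genes were called lower and none higher in the macrophage-adjusted fit. Serpina12, vaspin, had at most 0.228 CPM in any mouse and was not tested.

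Of 10 genes known to mark the expansion of fat pads 6 rose and 1 fell (median 1.32). Sfrp5, a secreted Wnt-binding protein, was at 4.27 to 60.9 CPM in CD mice (median 20.7) and at 212 to 416 CPM in HFD mice (median 282) (log2FC 3.97 ± 0.52, adjusted p = 3.6e-05). Mest, an imprinted gene of the endoplasmic reticulum, ranged over 16.5 to 173 CPM in CD mice (median 78.6) and over 221 to 534 CPM in HFD mice (median 409) (log2FC 2.58 ± 0.44, adjusted p = 0.00026). Npr3, the clearance receptor for natriuretic peptides, had a median of 334 CPM in CD mice (lowest 65.1, highest 546) and of 1406 CPM in HFD mice (lowest 1004, highest 1518) (log2FC 2.20 ± 0.42, adjusted p = 0.00054). All HFD mice were above all CD mice in these 3 genes, and CD mouse 3 was the lowest mouse for Npr3. Cav1, the coat protein of caveolae, was at 2045 to 3500.2 CPM in CD mice (median 2763) and at 2057 to 2438 CPM in HFD mice (median 2206) (log2FC -0.29 ± 0.12, adjusted p = 0.04), and its adjusted p without CD mouse 1 was 0.052. In the macrophage-adjusted fit 2 of the 10 genes were called higher and none lower.

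Genes of the insulin response were mostly lower. Of 17 tested 4 rose and 10 fell (median -0.59), and in the macrophage-adjusted fit 1 was called higher and none lower. Insr, the insulin receptor, was at 294 to 411 CPM in CD mice (median 337) and at 118 to 243 CPM in HFD mice (median 151) (log2FC -1.14 ± 0.15, adjusted p = 3.5e-05). Slc2a4, the insulin-regulated glucose transporter GLUT4, ranged over 162 to 269.6 CPM in CD mice (median 198) and over 108 to 153 CPM in HFD mice (median 133) (log2FC -0.64 ± 0.12, adjusted p = 0.0007). Hk2, hexokinase 2, had a median of 1144 CPM in CD mice (lowest 688, highest 2006) and of 321 CPM in HFD mice (lowest 217, highest 483) (log2FC -1.89 ± 0.24, adjusted p = 3.4e-05). In these 3 genes no HFD mouse reached the lowest CD mouse. Irs1, the docking protein below the receptor, was at 27.7 to 39.3 CPM in CD mice (median 33.8) and at 21.1 to 32.3 CPM in HFD mice (median 27.3), and its smaller fall passed the test (log2FC -0.33 ± 0.12, adjusted p = 0.025) although the diets overlapped. Grb14, an adaptor that binds and inhibits the insulin receptor, ranged over 2.21 to 16 CPM in CD mice (median 10.1) and over 33.6 to 56.5 CPM in HFD mice (median 49.3) (log2FC 2.30 ± 0.34, adjusted p = 8.9e-05), without overlap.

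Of 21 genes of adrenergic signalling and lipolysis 2 rose and 9 fell (median -0.09). At the receptor, Adrb3, the beta-3 adrenergic receptor of adipocytes, was at 529 to 959.9 CPM in CD mice (median 683) and at 139 to 357 CPM in HFD mice (median 205) (log2FC -1.68 ± 0.22, adjusted p = 3.6e-05). Downstream of it, Adcy3, an adenylyl cyclase, ranged over 26.7 to 32.5 CPM in CD mice (median 28.7) and over 84.7 to 106 CPM in HFD mice (median 100.2) (log2FC 1.74 ± 0.07, adjusted p = 2.7e-08). Each set of 6 was clear of the other in both genes, in opposite directions, and in the macrophage-adjusted fit Adcy3 was called higher (log2 fold change 1.56) while Adrb3 was not called (log2 fold change -1.02, adjusted p = 0.079). Among the enzymes and the lipid droplet coat, Pnpla2, adipose triglyceride lipase, had a median of 3800.2 CPM in CD mice (lowest 2972, highest 4322) and of 1922 CPM in HFD mice (lowest 1589, highest 3164) (log2FC -0.82 ± 0.17, adjusted p = 0.001). Lipe, hormone-sensitive lipase, was at 1892 to 2668 CPM in CD mice (median 2330.4) and at 1386 to 2239.9 CPM in HFD mice (median 1482) (log2FC -0.53 ± 0.13, adjusted p = 0.0034). Plin1, perilipin 1, ranged over 1246 to 2119.5 CPM in CD mice (median 1775) and over 948 to 1401 CPM in HFD mice (median 1003) (log2FC -0.68 ± 0.14, adjusted p = 0.0009). These 3 fell by less than Adrb3 did, and the highest HFD mouse was inside the CD range in each. In the macrophage-adjusted fit none of the 3 was called (adjusted p = 0.49, 0.73 and 0.51). Of the whole list it called 3 genes higher and none lower.

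Of 18 genes of de novo lipogenesis 3 rose and 10 fell (median -0.67), and their sum was 26005 to 60753 CPM in CD mice and 24790 to 33023 CPM in HFD mice. Acaca, acetyl-CoA carboxylase 1, the committed step (chr11:84129635-84401651), was at 617 to 1262 CPM in CD mice (median 955) and at 173 to 269.7 CPM in HFD mice (median 213) and fell 4.37-fold (log2FC -2.13 ± 0.18, adjusted p = 4.0e-06). Fasn, fatty acid synthase, ranged over 2624 to 10103 CPM in CD mice (median 4608) and over 676 to 2071 CPM in HFD mice (median 1723) (log2FC -1.70 ± 0.37, adjusted p = 0.0015). Acly, ATP citrate lyase, had a median of 416 CPM in CD mice (lowest 323, highest 890.2) and of 286 CPM in HFD mice (lowest 223, highest 321) (log2FC -0.81 ± 0.26, adjusted p = 0.015). Without overlap between the diets in these genes, HFD mouse 4 was the lowest HFD mouse for Fasn, far from the other 5. Elovl6, which lengthens palmitate, had a median of 30.44 CPM in CD mice and 21.97 CPM in HFD mice and did not pass the test (log2FC -0.67 ± 0.34, adjusted p = 0.098). Scd2, a stearoyl-CoA desaturase, moved the other way and ranged over 15.2 to 167 CPM in CD mice (median 59.9) and over 79.9 to 441 CPM in HFD mice (median 329.8) (log2FC 2.30 ± 0.57, adjusted p = 0.0036), with HFD mouse 4 inside the CD range. Of the lipogenesis genes 1 was called higher and 1 lower in the macrophage-adjusted fit.

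Of 19 genes of triglyceride synthesis and fatty acid uptake 4 rose and 11 fell (median -0.40). Gpam, the mitochondrial glycerol-3-phosphate acyltransferase, was at 317 to 583 CPM in CD mice (median 396) and at 76.9 to 114 CPM in HFD mice (median 96.8) (log2FC -2.06 ± 0.15, adjusted p = 1.8e-06). Cd36, the fatty acid translocase that macrophages also carry, had a median of 4406 CPM in CD mice (lowest 3649.8, highest 4610.3) and of 6609.5 CPM in HFD mice (lowest 6119, highest 7136) (log2FC 0.63 ± 0.10, adjusted p = 0.00016). Fabp5, a fatty acid binding protein on the list of lipid-associated macrophage markers, ranged over 47.3 to 111 CPM in CD mice (median 77) and over 212 to 392 CPM in HFD mice (median 343) (log2FC 2.13 ± 0.22, adjusted p = 9.6e-06). Gpam lay lower and the other 2 higher in every HFD mouse than in any CD mouse. Pck1, which supplies glycerol for triglyceride, was at 968 to 4019 CPM in CD mice (median 2234) and at 552 to 1544 CPM in HFD mice (median 838) (log2FC -1.35 ± 0.33, adjusted p = 0.0032), with overlap. Lpl, lipoprotein lipase, fell by 0.40 ± 0.15 on the log2 scale (adjusted p = 0.035), and Dgat2, which adds the last fatty acid, had a log2 fold change of 0.00 ± 0.21 (adjusted p = 0.99). Of these 19 genes the macrophage-adjusted fit called 1 higher and 2 lower.

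Breakdown of branched-chain amino acids had the highest share of falls among the 32 lists. All 22 genes had a negative log2 fold change, 21 passed the test (median -0.83) and 18 had every HFD mouse below every CD mouse, against 22.6% and 11.2% of all tested genes. Bcat2, the mitochondrial aminotransferase of the first step, was at 274 to 565 CPM in CD mice (median 379) and at 125 to 186 CPM in HFD mice (median 133) (log2FC -1.45 ± 0.16, adjusted p = 1.3e-05). Bckdhb, a subunit of the dehydrogenase that commits the carbon to breakdown, ranged over 109.5 to 157 CPM in CD mice (median 144) and over 57.8 to 108 CPM in HFD mice (median 68.8) (log2FC -0.95 ± 0.14, adjusted p = 0.00011). Aldh6a1, which acts late in valine breakdown, had a median of 1236 CPM in CD mice (lowest 938, highest 1548) and of 423 CPM in HFD mice (lowest 372, highest 734) (log2FC -1.40 ± 0.17, adjusted p = 2.2e-05). In each of the 3 the ranges of the diets were apart. The list summed 4763 to 7279 CPM in CD mice and 2641 to 4041 CPM in HFD mice, and in the macrophage-adjusted fit 4 genes were called lower and none higher.

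Mitochondrial genes fell by smaller amounts over larger lists. Of 22 genes of pyruvate dehydrogenase and the TCA cycle 2 rose and 18 fell (median -0.41). Pdha1, a subunit of pyruvate dehydrogenase, was at 416 to 698 CPM in CD mice (median 469.8) and at 253 to 323 CPM in HFD mice (median 288) (log2FC -0.85 ± 0.13, adjusted p = 0.00011). Pcx, pyruvate carboxylase, ranged over 1801 to 3804 CPM in CD mice (median 2534) and over 969 to 1274 CPM in HFD mice (median 1187) (log2FC -1.17 ± 0.15, adjusted p = 3.7e-05). Both had no overlap. Cs, citrate synthase, fell by 0.41 ± 0.09 on the log2 scale (adjusted p = 0.0019) and Sdhb, of succinate dehydrogenase, fell by 0.44 ± 0.09 (adjusted p = 0.00065). Idh3a, of the isocitrate dehydrogenase complex, rose by 0.38 ± 0.08 (adjusted p = 0.0017), and its adjusted p under TMM scaling was 0.099. The macrophage-adjusted fit called 1 gene of this list higher and none lower.

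Of 74 subunits of respiratory complexes I to V 61 fell and none rose (median -0.33). Under TMM scaling 71 fell, against 3833 of all 10361 tested genes. In the fit over all 38 mice, described below, 39 fell. Their range of log2 fold changes ran from -0.74 to 0.06, so no subunit reached a 2-fold change. Atp5c1, the gamma subunit of ATP synthase, had the largest fall, and it was at 373 to 571 CPM in CD mice (median 465) and at 259 to 309 CPM in HFD mice (median 274) (log2FC -0.74 ± 0.09, adjusted p = 2.2e-05). Ndufs1, of complex I, ranged over 171 to 238 CPM in CD mice (median 192) and over 143 to 188 CPM in HFD mice (median 163) (log2FC -0.29 ± 0.09, adjusted p = 0.015). Uqcrc1, of complex III, fell by 0.19 ± 0.08 on the log2 scale (adjusted p = 0.049), and Cox5a, of complex IV, had a log2 fold change of -0.15 ± 0.08 that did not pass (adjusted p = 0.099). In 21 of the 74 every HFD mouse was below every CD mouse (11.2% of all tested genes), which held for Atp5c1 and not for Ndufs1. Among these subunits 2 were called higher and none lower in the macrophage-adjusted fit. Of 75 mitochondrial ribosomal proteins 8 rose and 31 fell (median -0.12). Under TMM scaling 1 rose and 51 fell, against 3133 and 3833 of all 10361 tested genes. Mrps18a fell by 0.63 ± 0.11 on the log2 scale (adjusted p = 0.00029), Mrps6 rose by 0.58 ± 0.11 (adjusted p = 0.00045), and Mrpl12 had a log2 fold change of 0.13 ± 0.09 (adjusted p = 0.21). With the macrophage covariate 2 of these ribosomal proteins were called higher and none lower.

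Fatty acid oxidation was mixed, with 3 of 21 genes higher and 9 lower (median -0.19). Cpt1a, the carnitine palmitoyltransferase of liver and many other cells, was at 13.5 to 75.8 CPM in CD mice (median 47.8) and at 138 to 216 CPM in HFD mice (median 178) (log2FC 2.11 ± 0.31, adjusted p = 9.4e-05). Acaa2, the last enzyme of the mitochondrial spiral, ranged over 104 to 127 CPM in CD mice (median 120.1) and over 152 to 205 CPM in HFD mice (median 174) (log2FC 0.58 ± 0.08, adjusted p = 4.6e-05). Acad10, an acyl-CoA dehydrogenase, had a median of 32.2 CPM in CD mice (lowest 25.3, highest 45) and of 13.4 CPM in HFD mice (lowest 8.97, highest 22.3) (log2FC -1.18 ± 0.20, adjusted p = 0.00023). The first 2 were higher in every HFD mouse and Acad10 lower in every HFD mouse. Acadm, the medium-chain dehydrogenase, did not pass the test (log2FC 0.20 ± 0.11, adjusted p = 0.13), and the muscle form Cpt1b had at most 0.881 CPM and was not tested. Of 34 peroxisomal genes 5 rose and 18 fell (median -0.39). Pex3, needed to build the peroxisome membrane, was at 69.1 to 169 CPM in CD mice (median 116) and at 42.6 to 54.5 CPM in HFD mice (median 43.4) (log2FC -1.30 ± 0.16, adjusted p = 2.8e-05). Cat, catalase, ranged over 1149 to 2681 CPM in CD mice (median 1618) and over 906 to 1387 CPM in HFD mice (median 1036) (log2FC -0.63 ± 0.18, adjusted p = 0.0074). Abcd2, a peroxisomal transporter of very long fatty acids, fell by 0.38 ± 0.11 on the log2 scale (adjusted p = 0.0095). The macrophage-adjusted fit called 5 oxidation genes higher and 1 lower, and 2 peroxisomal genes higher and 1 lower.

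Cholesterol synthesis and uptake went against this trend, with 15 of 22 genes higher and 3 lower (median 0.72). Sqle, squalene epoxidase, was at 2.72 to 12.4 CPM in CD mice (median 6.21) and at 9.93 to 18.8 CPM in HFD mice (median 14) (log2FC 1.05 ± 0.27, adjusted p = 0.0048). Dhcr7, of the last step of synthesis, had a median of 5.51 CPM in CD mice (lowest 2.8, highest 7.39) and of 19 CPM in HFD mice (lowest 11.4, highest 22.7) (log2FC 1.61 ± 0.20, adjusted p = 2.7e-05), without overlap. Hmgcs1, which feeds the pathway, rose by 0.43 ± 0.16 (adjusted p = 0.034), with an adjusted p of 0.30 under TMM scaling and 0.060 without CD mouse 1. Fdft1, squalene synthase, was at 60.8 to 94.6 CPM in CD mice (median 81.3) and at 32.6 to 53.2 CPM in HFD mice (median 40.2) and fell (log2FC -0.93 ± 0.14, adjusted p = 8.7e-05). The macrophage-adjusted fit called 2 of the 22 higher and none lower.

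Of 32 glutathione and antioxidant enzymes 3 rose and 20 fell (median -0.47). Gpx3, the secreted glutathione peroxidase, was at 839 to 2485 CPM in CD mice (median 1287) and at 136 to 530.5 CPM in HFD mice (median 191) (log2FC -2.61 ± 0.32, adjusted p = 2.2e-05). Prdx3, the mitochondrial peroxiredoxin, ranged over 151 to 242 CPM in CD mice (median 197) and over 118 to 159 CPM in HFD mice (median 127) (log2FC -0.57 ± 0.11, adjusted p = 0.00059). Prdx1, its cytosolic relative, had a median of 658 CPM in CD mice (lowest 587, highest 746) and of 1025 CPM in HFD mice (lowest 723, highest 1769) and rose (log2FC 0.67 ± 0.17, adjusted p = 0.004). Gpx3 separated the diets, while the peroxiredoxins overlapped. Hmox1, haem oxygenase 1, did not pass the test (log2FC -0.34 ± 0.15, adjusted p = 0.06). Of these enzymes 7 were called lower and none higher in the macrophage-adjusted fit.

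Of 17 genes of the circadian clock 2 rose and 10 fell (median -0.69). Arntl, the activator BMAL1, was at 4.9 to 23.2 CPM in CD mice (median 7.52) and at 16.2 to 23.2 CPM in HFD mice (median 19.4) (log2FC 1.03 ± 0.28, adjusted p = 0.0065). Dbp, a clock output factor, ranged over 24.7 to 88.7 CPM in CD mice (median 57.2) and over 17.4 to 30.9 CPM in HFD mice (median 24.3) (log2FC -1.17 ± 0.28, adjusted p = 0.0026). Arntl was highest among CD mice in mouse 1 and the diets overlapped in both genes. The study's methods give the same morning fast on the final day for the mice, but the hour of tissue collection per mouse was not among the labels. The part of the hour and of the fast in these values was not tested. A total of 1 clock gene was called, as lower, in the macrophage-adjusted fit.

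**Figure D3:**
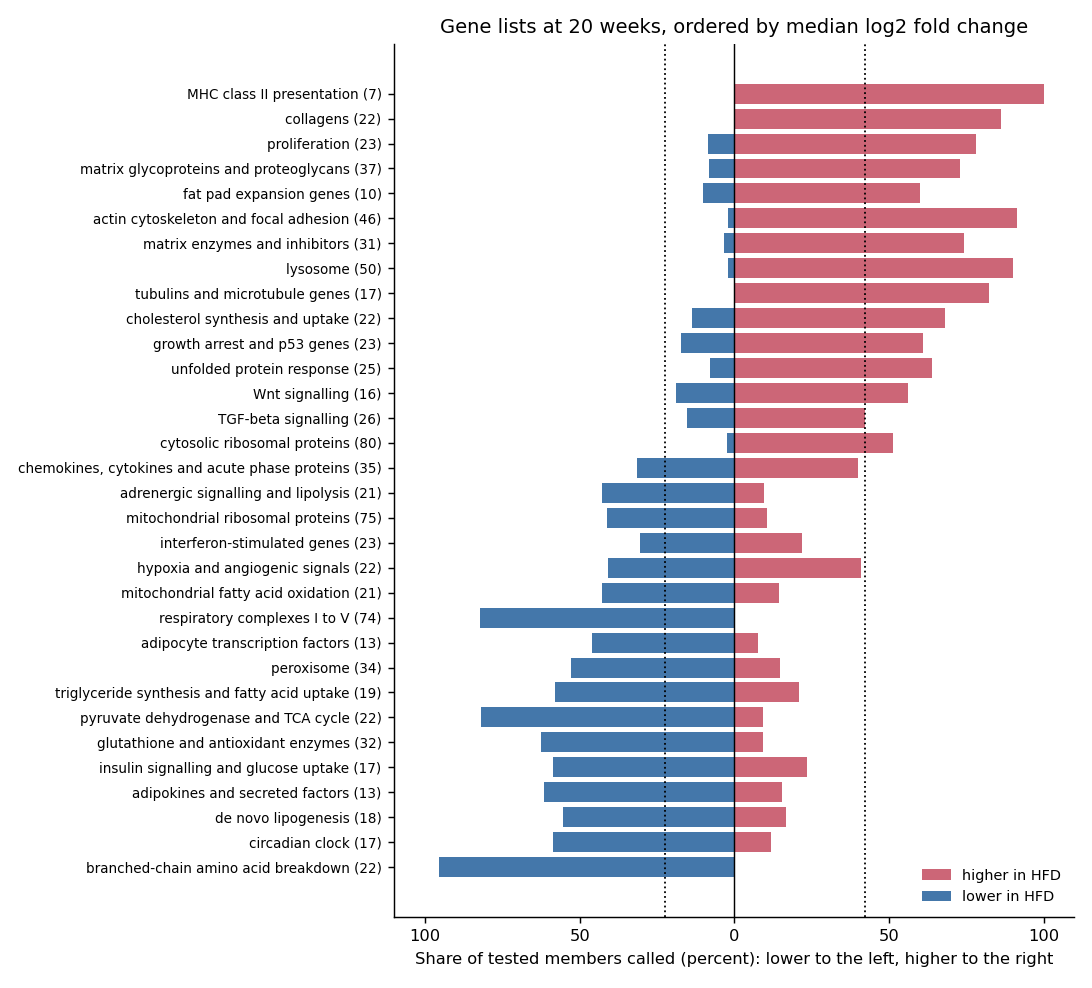
Share of the tested members of each of the 32 gene lists that rose (bars to the right, percent) or fell (bars to the left, percent) in HFD at 20 weeks, with the number tested in brackets, lists ordered by median log2 fold change and dotted lines at the shares over all tested genes (42.3% and 22.6%). The bars of the branched-chain amino acid and respiratory lists are to the left alone, and those of the collagen, tubulin and MHC class II lists to the right alone.

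Collagens showed a one-sided rise. Of 44 collagen genes listed 22 passed the level filter, and of these 19 rose and none fell (median 1.88), so the count speaks only for the expressed ones. Col1a1, the main chain of type I collagen of fibroblasts (chr11:94936224-94953042), was at 5.52 to 52.3 CPM in CD mice (median 11.7) and at 86.3 to 301 CPM in HFD mice (median 201) and rose 12.6-fold (log2FC 3.66 ± 0.45, adjusted p = 2.5e-05). Col3a1, which is laid down with it, ranged over 78.4 to 329.6 CPM in CD mice (median 174) and over 376 to 1096 CPM in HFD mice (median 712) (log2FC 2.04 ± 0.32, adjusted p = 0.00013). Col6a3, a chain of the microfibril collagen VI that adipocytes make, had a median of 39.3 CPM in CD mice (lowest 13.5, highest 93.2) and of 226 CPM in HFD mice (lowest 128, highest 342) (log2FC 2.49 ± 0.36, adjusted p = 8.1e-05). All 6 HFD mice were above all 6 CD mice in the 3 genes. Col4a1, of the basement membrane, was at 656 to 1839.9 CPM in CD mice (median 1156) and at 1050.2 to 1892 CPM in HFD mice (median 1707) and did not pass the test (log2FC 0.48 ± 0.22, adjusted p = 0.071), although without CD mouse 1 its adjusted p was 0.014. The list summed 1609 to 5762 CPM in CD mice and 4752 to 9534 CPM in HFD mice. Col1a1 and Col3a1 are also markers of fibroblasts, and 5 collagens were called higher and none lower in the macrophage-adjusted fit.

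Of 37 matrix glycoproteins and proteoglycans 27 rose and 3 fell (median 1.58), and in 19 all HFD mice were above all CD mice (26.1% of all tested genes). Sparc, which binds collagen and is made by adipocytes and endothelium, was at 929.7 to 2083 CPM in CD mice (median 1741) and at 2638 to 5428 CPM in HFD mice (median 4204) (log2FC 1.36 ± 0.21, adjusted p = 0.00014). Eln, elastin, ranged over 0.294 to 4.06 CPM in CD mice (median 1.57) and over 3.33 to 9.74 CPM in HFD mice (median 6.09) (log2FC 1.47 ± 0.29, adjusted p = 0.00073). Fn1, fibronectin, had a median of 101 CPM in CD mice (lowest 22.1, highest 534) and of 412 CPM in HFD mice (lowest 205, highest 787) (log2FC 1.99 ± 0.58, adjusted p = 0.0091). Sparc parted the diets, and Eln and Fn1 overlapped, with mouse 1 as the highest CD mouse for Fn1. Thbs1, thrombospondin 1, was among those that fell, and it was at 3844 to 6816 CPM in CD mice (median 4851) and at 2622 to 4149.7 CPM in HFD mice (median 2852) (log2FC -0.67 ± 0.17, adjusted p = 0.004). Of the list 14 were called higher and none lower in the macrophage-adjusted fit.

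Among 31 matrix enzymes and inhibitors 23 rose and 1 fell (median 1.06). Mmp2, gelatinase A, was at 0.515 to 14.1 CPM in CD mice (median 2.81) and at 32.1 to 80.2 CPM in HFD mice (median 56.3) (log2FC 3.82 ± 0.44, adjusted p = 1.5e-05). Mmp14, the membrane metalloprotease that activates it, ranged over 3.31 to 29.2 CPM in CD mice (median 6.76) and over 33.8 to 72.3 CPM in HFD mice (median 59.7) (log2FC 2.70 ± 0.38, adjusted p = 6.3e-05). Mmp9, gelatinase B, had a median of 9.24 CPM in CD mice (lowest 8.41, highest 17.9) and of 2.17 CPM in HFD mice (lowest 1.83, highest 3.13) and was the member that fell (log2FC -1.81 ± 0.17, adjusted p = 6.6e-06). The gelatinases thus moved in opposite directions, each without overlap, and Mmp9 was also called lower in the macrophage-adjusted fit (log2 fold change -2.02, adjusted p = 0.0031). Lox, which crosslinks collagen, was at 85.8 to 142 CPM in CD mice (median 113) and at 95.7 to 209.9 CPM in HFD mice (median 143) (log2FC 0.36 ± 0.20, adjusted p = 0.13). Timp1, an inhibitor of metalloproteases, ranged over 12.7 to 36.7 CPM in CD mice (median 17) and over 11.7 to 38.6 CPM in HFD mice (median 26.6) (log2FC 0.40 ± 0.28, adjusted p = 0.23). Neither Lox nor Timp1 passed the test. In the macrophage-adjusted fit 6 genes of the list were called higher and 1 lower.

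Of 26 genes of TGF-beta signalling 11 rose (42.3%, the share over all tested genes) and 4 fell (15.4%, against 22.6%), with a median of 0.21 (0.02 under TMM scaling with 10 higher and 7 lower). Among the ligands, Tgfb3 was at 6.4 to 15.4 CPM in CD mice (median 12.8) and at 18.1 to 26 CPM in HFD mice (median 20.7) (log2FC 0.80 ± 0.18, adjusted p = 0.0021). Gdf3, a ligand that fat tissue macrophages express, ranged over 0.0736 to 3.29 CPM in CD mice (median 0.629) and over 7.02 to 22.1 CPM in HFD mice (median 14.9) (log2FC 3.06 ± 0.32, adjusted p = 1.1e-05). Tgfb2 lay below the level tested, at 0.0736 to 0.490 CPM in CD mice and 0.709 to 4.07 CPM in HFD mice. The HFD mice were above the CD mice in all 3, and Inhba, which makes activin A, was at 0.151 to 1.47 CPM and 0.638 to 3.13 CPM in CD and HFD mice. Among the receptors, Acvr1b, an activin receptor, had a median of 214 CPM in CD mice (lowest 174, highest 259) and of 64.9 CPM in HFD mice (lowest 51.2, highest 105) and fell (log2FC -1.60 ± 0.17, adjusted p = 1.0e-05). Smad3, which carries the signal to the nucleus, did not pass the test (log2FC -0.09 ± 0.11, adjusted p = 0.5). The macrophage-adjusted fit called 4 genes higher and 1 lower.

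Of 16 Wnt signalling genes 9 rose (56.25%, against 42.3% of all tested genes) and 3 fell (18.75%, against 22.6%) (median 0.38). Fzd4, a receptor, was at 133 to 291 CPM in CD mice (median 210.2) and at 233 to 346 CPM in HFD mice (median 289) (log2FC 0.53 ± 0.17, adjusted p = 0.016), with an adjusted p of 0.066 under TMM scaling. Axin2, a feedback target of the beta-catenin arm, ranged over 18.5 to 32.9 CPM in CD mice (median 26.5) and over 7.02 to 9.01 CPM in HFD mice (median 7.62) (log2FC -1.61 ± 0.13, adjusted p = 3.4e-06). No HFD mouse came near the lowest CD mouse for Axin2. Sfrp5, described above, was the largest rise of the list. Wnt4 had at most 0.560 CPM in any mouse and was not tested. A single gene was called higher and 1, Axin2, lower in the macrophage-adjusted fit.

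Cytoskeletal genes rose almost throughout. Of 46 genes of the actin cytoskeleton and focal adhesions 42 rose and 1 fell (median 1.12), and 38 rose under TMM scaling. The CArG box, the site of serum response factor, was looked for on both strands in the 250 bases before the RefSeq start site (GRCm38.p6) of the 40 members with a promoter in the table. It was found in 5 of them (12.5%), against 1.43% of the 8299 tested genes with a promoter and 1.62% of 27025 genes in all, which describes letters in a window and not binding. Windows of 60 bases with the box in capitals are shown for the 3 of these genes that rose, Cnn2 (chr10:79988519-79988578, plus strand), Myl9 (chr2:156775278-156775337, plus strand) and Actg1 (chr11:120348551-120348610, minus strand). The search pattern itself sets how alike these boxes are.
Cnn2: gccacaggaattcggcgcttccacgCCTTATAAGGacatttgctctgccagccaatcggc
Myl9: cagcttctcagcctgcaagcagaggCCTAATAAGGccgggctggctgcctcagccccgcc
Actg1: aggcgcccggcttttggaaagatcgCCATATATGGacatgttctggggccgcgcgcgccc
Cnn2, calponin 2, was at 3.75 to 15.6 CPM in CD mice (median 6.8) and at 21.9 to 44.1 CPM in HFD mice (median 31.6) (log2FC 1.89 ± 0.27, adjusted p = 7.9e-05). Myl9, a myosin light chain, ranged over 0.883 to 4.84 CPM in CD mice (median 2.58) and over 3.97 to 11.4 CPM in HFD mice (median 8.14) (log2FC 1.34 ± 0.27, adjusted p = 0.00077). Actg1, the gamma actin of all cells, had a median of 563 CPM in CD mice (lowest 347, highest 659) and of 751 CPM in HFD mice (lowest 608, highest 864) (log2FC 0.54 ± 0.15, adjusted p = 0.0081). The other carriers of the box were Srf itself and Vcl, vinculin, with log2 fold changes of 0.10 ± 0.11 and 0.09 ± 0.11 that did not pass the test (adjusted p = 0.42 and 0.49). Among the 3 that rose, Cnn2 separated the diets and Myl9 and Actg1 overlapped.

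In the same group Capg, a capping protein abundant in macrophages, had the largest rise, and it was at 6.99 to 116 CPM in CD mice (median 16.6) and at 207 to 513 CPM in HFD mice (median 396) (log2FC 4.12 ± 0.51, adjusted p = 2.4e-05). Actb, beta actin, ranged over 841 to 1722 CPM in CD mice (median 1513) and over 1941 to 2221 CPM in HFD mice (median 2048) (log2FC 0.59 ± 0.16, adjusted p = 0.0057). Itga5, the fibronectin receptor chain, had a median of 89.1 CPM in CD mice (lowest 36.2, highest 199) and of 389.7 CPM in HFD mice (lowest 306, highest 425) (log2FC 2.11 ± 0.30, adjusted p = 7.3e-05). None of these overlapped between the diets, and CD mouse 1 held the highest CD value for Capg. Myh10, a non-muscle myosin, was the member that fell (log2FC -0.40 ± 0.09, adjusted p = 0.0018). The macrophage-adjusted fit called 13 of the 46 higher and none lower. Of 24 tubulins and microtubule genes listed 17 passed the level filter. Of these 17 genes 14 rose and none fell (median 0.86), and 1 fell under TMM scaling. The count speaks only for genes that passed, and the CD medians of Tubb2b and Stmn1 were under the level of the filter. Tuba1a was at 13.9 to 184 CPM in CD mice (median 99.3) and at 211 to 714 CPM in HFD mice (median 555) (log2FC 2.59 ± 0.54, adjusted p = 0.0011). Tubb2a ranged over 27 to 57.4 CPM in CD mice (median 36.5) and over 77.5 to 98.9 CPM in HFD mice (median 88.6) (log2FC 1.22 ± 0.17, adjusted p = 5.6e-05) and Tubb2b had a median of 1.6 CPM in CD mice (lowest 0.658, highest 2.83) and of 7.18 CPM in HFD mice (lowest 5.25, highest 8.34) (log2FC 1.67 ± 0.20, adjusted p = 1.7e-05), and as tubulin genes are close copies, their reads may have been split or lost. Stmn1, which takes microtubules apart in dividing cells, was at 0.957 to 5.81 CPM in CD mice (median 2.36) and at 17.7 to 33.1 CPM in HFD mice (median 25.8) (log2FC 2.87 ± 0.25, adjusted p = 4.0e-06). All HFD mice were above all CD mice in the 4 genes, and the macrophage-adjusted fit called 3 of the 17.

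Lysosomal genes rose in 45 of 50 cases and fell in 1 (median 1.02), and in 42 all HFD mice were above all CD mice (26.1% of all tested genes). This was also the list with the most calls in the macrophage-adjusted fit, 28 called higher and 1 lower. The E-box of the CLEAR type, read here as TCACGTG on either strand, is the site of the lysosomal regulator TFEB and its relatives. It was present in the 250 bases before the start of 10 of the 37 lysosomal genes with a promoter (27.0%), against 6.12% of the tested genes and 3.58% of all genes. Of these 37 genes 33 rose, and 9 of the 33 carried the box. Gaa carried it too and was not called (log2 fold change 0.12). The shares describe letters in a window and not binding, and a link of the box to the diet difference was not tested. Windows from RefSeq (GRCm38.p6) with the box in capitals are given for 4 members that rose, from different roles in the lysosome, namely the protease Ctsd (chr7:142387894-142387953, minus strand), the glycosidases Gla (chrX:134601168-134601227, minus strand) and Naglu (chr11:101069993-101070052, plus strand) and the proton pump subunit Atp6v1a (chr16:44139359-44139418, minus strand).
Ctsd: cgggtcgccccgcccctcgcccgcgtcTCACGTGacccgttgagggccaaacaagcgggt
Gla: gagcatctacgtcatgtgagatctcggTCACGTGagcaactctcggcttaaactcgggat
Naglu: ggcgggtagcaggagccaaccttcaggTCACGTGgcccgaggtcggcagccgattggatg
Atp6v1a: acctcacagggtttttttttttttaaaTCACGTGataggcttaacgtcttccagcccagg
Ctsd, cathepsin D, was at 1344 to 2227 CPM in CD mice (median 1690.4) and at 3806 to 6152 CPM in HFD mice (median 5438) (log2FC 1.63 ± 0.14, adjusted p = 4.6e-06). Gla, alpha-galactosidase, ranged over 9.27 to 35.1 CPM in CD mice (median 19.7) and over 48.3 to 109 CPM in HFD mice (median 87.8) (log2FC 1.95 ± 0.27, adjusted p = 5.2e-05). Naglu, which degrades heparan sulfate, had a median of 30.3 CPM in CD mice (lowest 21.8, highest 36.6) and of 64.3 CPM in HFD mice (lowest 53.9, highest 68.5) (log2FC 1.07 ± 0.12, adjusted p = 1.4e-05). Every HFD mouse was above every CD mouse in these, and also in Atp6v1a, which was at 129.7 to 216 CPM in CD mice (median 155) and at 325 to 555 CPM in HFD mice (median 462) (log2FC 1.5 ± 0.14, adjusted p = 5.8e-06). Hexa, a hexosaminidase without the box in its window, ranged over 125 to 217 CPM in CD mice (median 165) and over 333 to 565 CPM in HFD mice (median 434) (log2FC 1.39 ± 0.14, adjusted p = 9.6e-06). Ctsc, cathepsin C, had a median of 389 CPM in CD mice (lowest 300.0, highest 555) and of 184 CPM in HFD mice (lowest 166, highest 226) and was the member that fell (log2FC -1.05 ± 0.14, adjusted p = 4.0e-05). Its fall also passed the test in the macrophage-adjusted fit (log2 fold change -1.05, adjusted p = 0.024).

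All 7 tested genes of MHC class II presentation rose, with log2 fold changes from 1.98 to 2.67, and no mouse of either diet fell inside the range of the other. H2-Aa, the alpha chain, was at 98 to 364 CPM in CD mice (median 155) and at 514 to 1227 CPM in HFD mice (median 691) (log2FC 2.05 ± 0.29, adjusted p = 6.9e-05). Cd74, its invariant chain, ranged over 164 to 581 CPM in CD mice (median 268) and over 884 to 1921 CPM in HFD mice (median 1141) (log2FC 1.99 ± 0.28, adjusted p = 5.9e-05). H2-DMb1, which helps load peptides, had a median of 7.21 CPM in CD mice (lowest 5, highest 24.6) and of 62.9 CPM in HFD mice (lowest 41.3, highest 80.7) (log2FC 2.67 ± 0.29, adjusted p = 1.3e-05). CD mouse 1 was the highest CD mouse for H2-DMb1 by a wide gap, and 2 of the 7 genes were called in the macrophage-adjusted fit.

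Of 35 chemokines, cytokines and acute phase proteins 14 rose (40%, against 42.3% of all tested genes) and 11 fell (31.4%, against 22.6%). In the fit over all 38 mice these counts were 10 and 7. Their median was 0.11 but -0.06 under TMM scaling. Il1b, interleukin 1 beta, was at 14.3 to 169 CPM in CD mice (median 30.1) and at 306 to 1564 CPM in HFD mice (median 819) (log2FC 4.23 ± 0.55, adjusted p = 3.5e-05). Tnf, tumour necrosis factor, ranged over 69.8 to 468 CPM in CD mice (median 133) and over 615 to 1520.1 CPM in HFD mice (median 934) (log2FC 2.68 ± 0.39, adjusted p = 8.2e-05). Both cytokines were higher in every HFD mouse than in any CD mouse. Ccl2, the monocyte chemokine, had a median of 695 CPM in CD mice (lowest 440.1, highest 1224) and of 461 CPM in HFD mice (lowest 372, highest 617) and did not pass the test (log2FC -0.54 ± 0.24, adjusted p = 0.06), and it was lower in HFD under TMM scaling (log2 fold change -0.75, adjusted p = 0.011). Csf1, the growth factor of macrophages, was at 262 to 540.3 CPM in CD mice (median 417) and at 146 to 318 CPM in HFD mice (median 183) and fell (log2FC -1.0 ± 0.22, adjusted p = 0.0016). From this list 1 gene was called higher and 10 lower in the macrophage-adjusted fit.

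Of 23 interferon-stimulated genes 5 rose (21.7%, against 42.3% of all tested genes) and 7 fell (30.4%, against 22.6%) (median -0.13). The interferon-stimulated response element, searched as GAAANNGAAA on both strands, stood in the 250 bases before the start of 9 of 20 members with a promoter (45%), against 3.13% of tested genes and 3.46% of all genes. It was carried by members that moved in opposite directions, as windows from RefSeq (GRCm38.p6) show for the member with the largest fall, Gbp2 (chr3:142620579-142620638, plus strand), and that with the largest rise, Oas1a (chr5:120907526-120907585, minus strand), where the capitals mark the element.
Gbp2: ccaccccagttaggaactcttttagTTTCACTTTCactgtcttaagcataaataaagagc
Oas1a: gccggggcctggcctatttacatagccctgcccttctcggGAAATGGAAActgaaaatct
Gbp2, a guanylate-binding protein, was at 407 to 1041 CPM in CD mice (median 494) and at 138 to 250.5 CPM in HFD mice (median 198) (log2FC -1.56 ± 0.21, adjusted p = 5.0e-05). Oas1a, a sensor of double-stranded RNA whose close copies could share reads, ranged over 2.19 to 7.07 CPM in CD mice (median 4.59) and over 10.5 to 14.1 CPM in HFD mice (median 11.8) (log2FC 1.34 ± 0.22, adjusted p = 0.00018). The diets were apart in both. Irf7 fell by 0.66 ± 0.17 on the log2 scale (adjusted p = 0.0039), and Isg15 was at 7.87 to 26.4 CPM in CD mice (median 16.1) and at 7.3 to 54.4 CPM in HFD mice (median 27.3) and did not pass (adjusted p = 0.29). None was called higher and 4 were called lower in the macrophage-adjusted fit.

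Of 25 genes of the unfolded protein response 16 rose and 2 fell (median 0.40), and 12 rose and 6 fell under TMM scaling. Sdf2l1, a chaperone partner of the endoplasmic reticulum, was at 2.75 to 10.9 CPM in CD mice (median 4.73) and at 18.1 to 28 CPM in HFD mice (median 23.6) (log2FC 2.03 ± 0.22, adjusted p = 1.3e-05). Xbp1, a transcription factor activated by splicing of its mRNA, ranged over 368 to 495 CPM in CD mice (median 417) and over 168 to 319 CPM in HFD mice (median 187) and fell (log2FC -1.03 ± 0.15, adjusted p = 7.0e-05), in a count that does not tell spliced from unspliced mRNA. Hspa5, the chaperone BiP, rose by 0.30 ± 0.09 (adjusted p = 0.013) but had an adjusted p of 0.33 under TMM scaling, and Ddit3, CHOP, did not pass the test (log2FC 0.01 ± 0.11, adjusted p = 0.91). In the macrophage-adjusted fit 2 of the list were called higher.

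Of 22 hypoxia and angiogenic signals 9 rose (40.9%, against 42.3% of all tested genes) and 9 fell (40.9%, against 22.6%) (median -0.14). Hif1a, the oxygen-regulated factor, was at 272 to 534 CPM in CD mice (median 384) and at 139 to 188 CPM in HFD mice (median 169) (log2FC -1.24 ± 0.14, adjusted p = 1.4e-05), a transcript level that does not measure its protein. Vegfa, the main growth factor of vessels, ranged over 312 to 531 CPM in CD mice (median 438) and over 182 to 371 CPM in HFD mice (median 216) (log2FC -0.89 ± 0.17, adjusted p = 0.00067). Fgf2 had a median of 50.7 CPM in CD mice (lowest 38.3, highest 57.5) and of 10.1 CPM in HFD mice (lowest 8.48, highest 13.8) (log2FC -2.10 ± 0.12, adjusted p = 6.1e-07). Angpt2, which loosens vessels, moved the other way and was at 0.439 to 1.96 CPM in CD mice (median 0.951) and at 6.1 to 15.6 CPM in HFD mice (median 12.2) (log2FC 2.60 ± 0.24, adjusted p = 5.4e-06). No overlap was seen for Hif1a, Fgf2 and Angpt2, and Slc2a1, the glucose transporter GLUT1, fell by 0.53 ± 0.12 on the log2 scale (adjusted p = 0.0024). Of these signals 2 were called higher and 2 lower in the macrophage-adjusted fit.

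Of 32 proliferation genes listed 23 passed the level filter, and of these 18 rose and 2 fell (median 1.79). The count speaks only for genes that passed, and the CD median of Ccnd1 was under the level of the filter. Mki67, the proliferation antigen, was at 2.58 to 59.4 CPM in CD mice (median 12.7) and at 116 to 191 CPM in HFD mice (median 161) (log2FC 3.41 ± 0.48, adjusted p = 6.5e-05). Top2a, topoisomerase II of dividing cells, ranged over 1.1 to 12 CPM in CD mice (median 3.09) and over 26.8 to 43.7 CPM in HFD mice (median 37.6) (log2FC 2.96 ± 0.33, adjusted p = 1.4e-05). Ccnd1, cyclin D1, had a median of 2.58 CPM in CD mice (lowest 0.957, highest 5.81) and of 33.5 CPM in HFD mice (lowest 25.5, highest 40.5) (log2FC 3.31 ± 0.24, adjusted p = 1.8e-06). The HFD mice were above all CD mice in the 3 genes, and 12 of the list, Ccnd1 among them (log2 fold change 2.01, adjusted p = 2.8e-05), were called higher in the macrophage-adjusted fit. Ccnd2, cyclin D2, had the largest fall and was at 300.2 to 399.5 CPM in CD mice (median 349) and at 222 to 267 CPM in HFD mice (median 249.9) (log2FC -0.49 ± 0.09, adjusted p = 0.00048). Of 23 growth arrest and p53 genes 14 rose (60.9%, against 42.3% of all tested genes) and 4 fell (17.4%, against 22.6%) (median 0.53). Cdkn1a, the inhibitor p21, ranged over 28.5 to 156 CPM in CD mice (median 70.03) and over 227 to 509 CPM in HFD mice (median 361) (log2FC 2.41 ± 0.33, adjusted p = 5.1e-05). Igfbp3, which binds insulin-like growth factors, had a median of 1.61 CPM in CD mice (lowest 0.951, highest 3.59) and of 15.6 CPM in HFD mice (lowest 9.87, highest 28.9) (log2FC 2.67 ± 0.25, adjusted p = 6.3e-06). Cdkn2b, p15, rose by 0.53 ± 0.12 (adjusted p = 0.0015), and Cdkn2a, p16 and p19, was too low to test at 0.146 to 0.670 CPM in CD mice and 1.38 to 2.03 CPM in HFD mice. Btg1, which slows the cell cycle, was at 1062 to 1371 CPM in CD mice (median 1149.9) and at 475 to 812 CPM in HFD mice (median 619) and fell (log2FC -0.92 ± 0.12, adjusted p = 4.6e-05). Diets did not overlap in any gene of these sentences, and in the macrophage-adjusted fit 4 arrest genes were called higher and 1 lower.

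Of 80 cytosolic ribosomal proteins 41 rose (16 in the fit over all 38 mice) and 2 fell with a median of 0.18, but under TMM scaling 4 rose and 9 fell with a median of -0.02, so the group has no direction of its own beside the bulk of genes. Rpl3 was at 305 to 365 CPM in CD mice (median 322) and at 318 to 395 CPM in HFD mice (median 333) (log2FC 0.06 ± 0.07, adjusted p = 0.46), and Rps6 did not pass the test either (log2FC 0.09 ± 0.07, adjusted p = 0.3). Rpl12 rose by 0.46 ± 0.09 (adjusted p = 0.00048) and Rpl24 fell by 0.64 ± 0.09 (adjusted p = 7.0e-05) on the log2 scale, and copies of these genes elsewhere in the genome could take some of their reads. No member was called in the macrophage-adjusted fit.

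**Figure D4:**
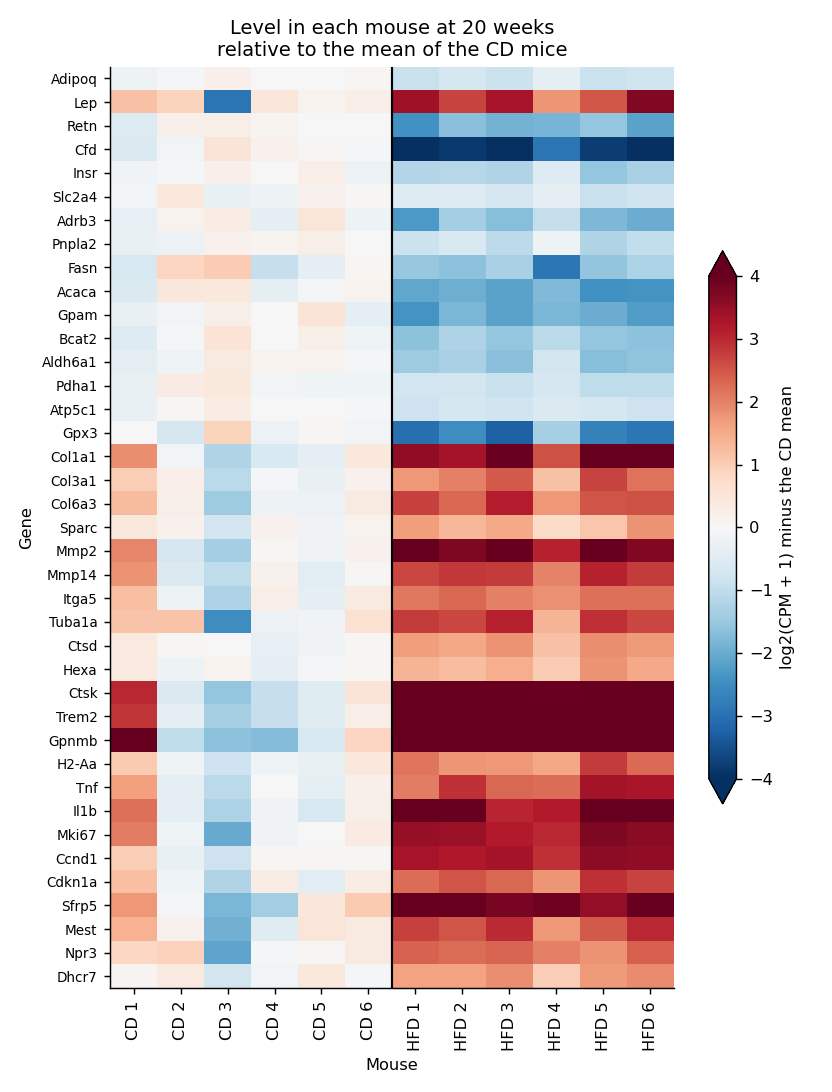
Log2(CPM + 1) of named genes of each group (rows) in the 6 CD and 6 HFD mice of 20 weeks (columns), drawn as the difference from the mean of the CD mice, with differences beyond 4 in the end colours. CD mouse 1 is nearer to the HFD mice than the other CD mice are in the macrophage genes, and HFD mouse 4 is paler than the other HFD mice.

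The diet difference at 20 weeks was set against those at 8 and at 34 weeks by interaction terms in 1 fit over the 38 mice (10343 genes), since a gene called at one time and not at another is not thereby shown to differ. At 20 against 8 weeks 464 genes (4.49%) differed in their diet effect, 348 of them with the larger effect in size at 20 weeks and 264 with opposite signs at the times compared. At 20 against 34 weeks 1089 genes (10.5%) differed, 877 of them with the larger effect in size at 20 weeks and 578 with opposite signs. The counts moved with CD mouse 1, without which they were 1310 and 1575, and with CD mouse 3 and CD mouse 4, without which they were at their lowest, 195 and 710. The count against 8 weeks also lay between 218 and 285 when any one of CD mice 4 to 6 or HFD mice 1, 2, 3, 5 and 6 was left out.

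Among genes past the threshold the largest positive differences against 8 weeks were in Gnal, Serpinb9b and Nav2. Gnal, a stimulatory G protein subunit that couples to adenylyl cyclase, was at 9.07 to 50.5 CPM in CD mice (median 19.6) and at 34.8 to 250.4 CPM in HFD mice (median 78), and its log2 fold change was -1.65 ± 0.52 at 8 weeks and 1.95 ± 0.52 at 20 weeks (difference 3.59 ± 0.74, adjusted p = 0.0094). Serpinb9b, a serine protease inhibitor, ranged over 0 to 4.27 CPM in CD mice (median 0.148) and over 18.5 to 115 CPM in HFD mice (median 26.3), with log2 fold changes of 1.60 ± 0.43 and 4.58 ± 0.43 (difference 2.98 ± 0.61, adjusted p = 0.0093). Nav2, a neuron navigator protein, had a median of 0.799 CPM in CD mice (lowest 0.368, highest 3.36) and of 13.1 CPM in HFD mice (lowest 9.9, highest 15.9), and its log2 fold change went from -0.15 ± 0.41 to 2.78 ± 0.41 (difference 2.93 ± 0.58, adjusted p = 0.0079). Gnal thus had opposite signs at the times compared. The largest negative differences past it were in genes of alternatively activated and resident macrophages. Retnla, a secreted protein of macrophages under interleukin 4, was at 45 to 272 CPM in CD mice (median 175) and at 22.2 to 189 CPM in HFD mice (median 47), with log2 fold changes of 1.79 ± 0.54 at 8 weeks and -1.37 ± 0.54 at 20 weeks (difference -3.16 ± 0.76, adjusted p = 0.020). Cd209d, a lectin, ranged over 5.08 to 14.9 CPM in CD mice (median 11.7) and over 1.27 to 5.67 CPM in HFD mice (median 2.19), with 1.54 ± 0.37 and -1.74 ± 0.37 (difference -3.28 ± 0.52, adjusted p = 0.0032). Cd209b, its neighbour in the family, had log2 fold changes of 1.04 ± 0.39 and -1.74 ± 0.39 (difference -2.78 ± 0.55, adjusted p = 0.0079). The 3 genes were higher in HFD at 8 weeks and lower at 20 weeks, and all 6 differences passed the test in each of the 12 fits that left out 1 mouse of 20 weeks.

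Against 34 weeks the largest differences past the threshold included those of Gpnmb, Spp1, Cyp2f2 and Acsm3, which were also among the largest changes at 20 weeks. Scd2 was also among these differences, but not among the largest changes. Gpnmb had a log2 fold change of 6.66 ± 0.80 at 20 weeks and 2.32 ± 0.74 at 34 weeks (difference 4.33 ± 1.09, adjusted p = 0.010). CD mice of 34 weeks held 71.1 to 1784 CPM of Gpnmb and HFD mice of 34 weeks 1305 to 4487 CPM, and at 20 weeks the medians were 16.7 CPM in CD mice and 3247 CPM in HFD mice. Scd2 changed sign, from 2.30 ± 0.57 at 20 weeks to -1.62 ± 0.53 at 34 weeks (difference 3.92 ± 0.78, adjusted p = 0.0020). Spp1 went from 4.95 ± 0.82 to 1.16 ± 0.76 (difference 3.79 ± 1.12, adjusted p = 0.026), and this one passed in 10 of the 12 fits that left out a mouse. Cyp2f2 had -5.38 ± 0.46 at 20 weeks and -0.85 ± 0.43 at 34 weeks (difference -4.53 ± 0.63, adjusted p = 4.4e-05). Its CD mice of 34 weeks ranged from 3.21 to 29.2 CPM, where only the highest was above the lowest CD mouse of 20 weeks. Acsm3 (difference -3.66 ± 0.79, adjusted p = 0.0040) followed the same course. The mice of different times were different animals, and whether they were handled in different batches was not given in the labels, so time and handling cannot be told apart.

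By lists, 12 of the 37 matrix glycoproteins, 9 of the 22 collagens and 7 of the 22 cholesterol genes had a more positive diet difference at 20 than at 34 weeks, against 6.31% of all genes. None of these 3 lists had a member with a more negative one. In the fit over the 38 mice cholesterol genes were called higher in 12 cases and lower in 1 at 20 weeks, and at 34 weeks 4 were higher and 7 lower. In the branched-chain amino acid list of 22 genes 4 had a more negative diet difference at 20 than at 34 weeks (4.22% of all genes did) and 2 a more negative one than at 8 weeks (1.67% of all genes did). Respiratory subunits had 39 calls lower at 20 weeks, 61 at 34 weeks and 1 at 8 weeks in that fit, but 1 subunit passed the test of the difference between 20 and 8 weeks.

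**Figure D5:**
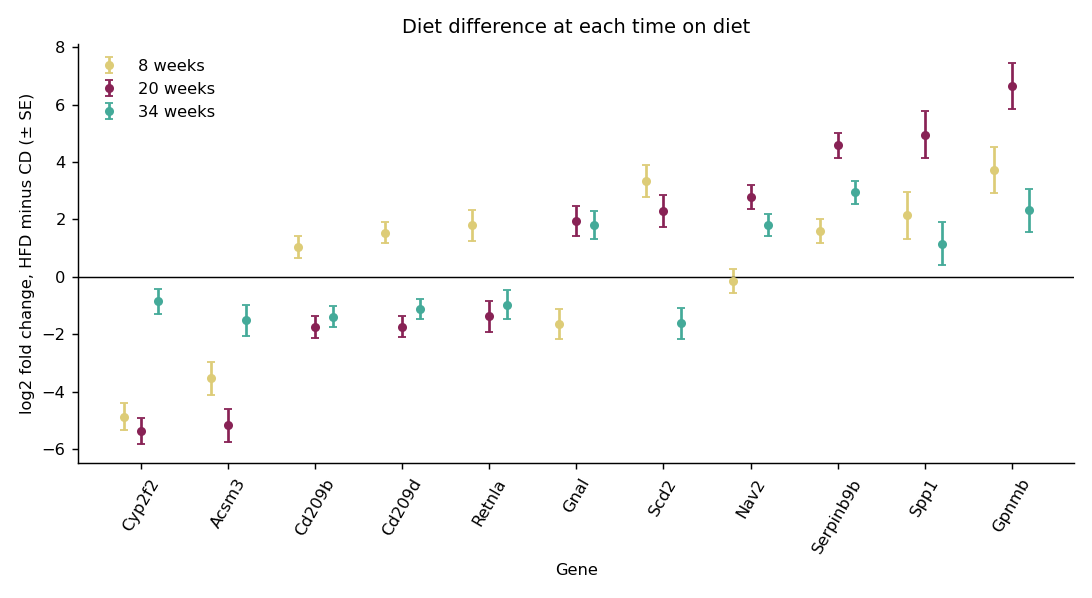
Log2 fold change of HFD over CD (vertical axis) at 8, 20 and 34 weeks (colours) from the fit over the 38 mice, with bars of 1 standard error. The genes (horizontal axis) are those with the largest differences between 20 weeks and the other times. Gnal, Retnla, Cd209d and Cd209b cross 0 between 8 and 20 weeks, and Scd2 crosses 0 between 20 and 34 weeks. Nav2 also changes sign between 8 and 20 weeks, from a value within 1 standard error of 0 at 8 weeks.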

How the data were processed

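PolyA RNA of floating perigonadal adipocytes was sequenced in 38 mice, as 3 technical replicates per mouse that the deposited table holds as 1 column. The deposited values are counts scaled to a library total of 1000000 (CPM): per the labels and the study's methods the authors aligned reads to mm10 (GRCm38) with STAR (2.5 and 2.5.2b in the processing notes), counted them per gene with featureCounts of Subread 1.5.1, and worked in edgeR and limma. The methods name TMM factors for CPM values, whereas every deposited column had that sum, so the values were taken as scaled by depth alone and TMM factors were an alternative, and all values (100%) were whole multiples of 1 read within 0.1 read. The strand setting is not given in the sources used here. In the comparison of 20 weeks, log2(CPM + 1) of genes with a mean above 2 was fitted with limma 3.58.1 (R 4.3.3, trend) on diet in the 12 mice, and p-values were adjusted over the 10361 genes. Interactions with time were fitted over the 38 mice on 10343 genes. Alternatives were other pseudocounts and filters, TMM and median-of-ratios factors, the macrophage marker mean as a covariate, a replicate block, array weights, leaving out each mouse, and edgeR 4.0.16 and DESeq2 1.42.0 on the recovered reads. Scripts were tested on simulated data. No pair of mice of the same diet at 20 weeks agreed within sampling noise, and other pairs were not compared. Labels number the mice as separate animals. Of the gene symbols 27250 (93.5%) matched RefSeq. Members and gene lists were chosen with earlier results of these data known. Named genes were the 10 largest rises and falls without overlap between the diets (predicted genes passed over), anchor genes of each list, the largest rise and fall in each list, and the 3 largest differences in each direction for each time, and other genes, such as cell markers and carriers of a motif, were chosen after their values were seen. A few genes that the rule names are not reported here. Motifs were searched in the 250 bases before the RefSeq start. All motif shares describe letters in a window and not binding. The sterol regulatory element (TCACNCCAC) was in 1 of 15 cholesterol genes (6.67%, against 1.28% of tested genes), and the NRF1 site (GCGCANGCGC) in 13 of 63 respiratory genes (20.6%, against 9.77%).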

Additional observations from a re-analysis of the deposited data

Results flagged for a closer look

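In 22 of 308 groups of 6 mice examined, among 21 of the 154 named genes tested, the highest or lowest mouse lay apart from the other 5 by a gap that took up more of the group's range than Dixon's critical value allows. Chance gives about 1 such group in 20. The share of the range taken by the gap, on the log2(CPM + 1) scale, is given in brackets. A wide gap in CPM need not pass on that scale. Gpnmb in CD mouse 1 (539.95 CPM, against 54.7 CPM or less in the other CD mice) was not among the cases. CD mouse 1 was the highest CD mouse, set apart, for Rnf128 (0.741), Adam8 (0.746), Spp1 (0.706), H2-DMb1 (0.695) and Serpinb9b (0.914), and the lowest for Retn (0.669) and Lpl (0.643). CD mouse 3 was the lowest CD mouse for Lep (0.75), Npr3 (0.67), Cd36 (0.634) and Cd209d (0.679). HFD mouse 4 was the lowest HFD mouse for Ctsk (0.634), Fasn (0.776), Elovl6 (0.727), Dgat2 (0.762), Lpl (0.729), Mmp14 (0.643), Tuba1a (0.745), Scd2 (0.766) and Dhcr7 (0.674). HFD mouse 6 was the lowest for Cox5a (0.649) and HFD mouse 2 the lowest for Adcy3 (0.672). CD mouse 1, CD mouse 3 and HFD mouse 4 hold 20 of the 22 cases, and what set them apart was not tested.

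The interaction term between diet and time was past the threshold for 13 named genes at 20 against 8 weeks. The log2 fold change at 20 weeks was the more positive by the value in brackets for Gnal (3.59), Serpinb9b (2.98), Nav2 (2.93), Ctsk (2.90), Mmp2 (2.55), Grb14 (1.80), Cpt1a (1.31) and Adcy3 (1.13). It was the more negative for Cd209d (-3.28), Retnla (-3.16), Cd209b (-2.78), Agt (-1.71) and Ccnd2 (-0.71). Against 34 weeks this term was past the threshold for 37 named genes in the fit over the 38 mice. The log2 fold change at 20 weeks was the more positive by the value in brackets for Gpnmb (4.33), Scd2 (3.92), Spp1 (3.79), Col1a1 (3.52), Sfrp5 (3.40), Atp6v0d2 (2.99), Anpep (2.85), Trem2 (2.79), Tuba1a (2.57), Lep (2.33), Fabp5 (2.26), Npr3 (2.14), Col3a1 (1.92), Elovl6 (1.84), Grb14 (1.39), Dhcr7 (1.35), Sparc (1.13), Ctsd (1.02), Tgfb3 (0.99), Mrps6 (0.90), Acaa2 (0.75) and Idh3a (0.67). It was the more negative for Cyp2f2 (-4.53), Acsm3 (-3.66), Pon1 (-3.66), Axin2 (-1.56), Mmp9 (-1.53), Fgf2 (-1.52), Hif1a (-1.48), Acvr1b (-1.46), Gbp2 (-1.43), Hk2 (-1.37), Slc2a1 (-1.24), Ctsc (-1.11), Aldh6a1 (-0.90), Btg1 (-0.81) and Xbp1 (-0.67).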

How the results depend on the processing

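The count of 6727 genes at 20 weeks lay between 6262 (without HFD mouse 6) and 6964 (without CD mouse 1) when each mouse was left out in turn, with 4120 to 4591 higher and 2138 to 2509 lower. Another pseudocount (0.5 or 2) gave 6727 and 6729 genes, no filter 8631 of 19813, and a cut at 4 gave 4763 of 7265. The number lower was 3833 with TMM factors, 3551 with median-of-ratios factors and 3564 with edgeR on the recovered reads, which called 6868 genes in all, and DESeq2 called 6979 (3478 higher, 3501 lower). With the macrophage marker mean as a covariate 1410 genes were called (927 higher, 483 lower), and at least a 2-fold difference held for 1895 (1511 higher, 384 lower). The count of 464 genes for 20 against 8 weeks ranged from 195 to 1310 and that of 1089 for 20 against 34 weeks from 710 to 1575 without 1 mouse, and at least a 2-fold difference left 176 and 347. A block by mouse number gave 6271 genes at 20 weeks, and 374 and 1052 for the differences between times. The numbers share no litter or day in the labels, the correlations of same-numbered mice ran from -0.239 to 0.306 and only number 6 correlated best with itself, so the numbers did not pair the mice. Of 154 named genes tested 10 that passed the test turned direction, all with the macrophage covariate and by no other setting: Irs1 at 0.12, Pck1 at 0.016, Ndufs1 at 0.11, Uqcrc1 at 0.11, Cat at 0.23, Arntl at -0.21, Fn1 at -1.15, Actb at -0.087, Fzd4 at -0.080 and Hspa5 at -0.063 (log2 fold change). A further 13 named genes that did not pass the test also changed sign. With TMM factors the log2 fold change was -0.20 for Dgat2, -0.00033 for Acadm, -0.071 for Mrpl12, -0.094 for Srf, -0.11 for Vcl, -0.18 for Ddit3, -0.14 for Rpl3 and -0.11 for Rps6. With median-of-ratios factors the log2 fold change was -0.16 for Dgat2, -0.038 for Mrpl12, -0.061 for Srf, -0.077 for Vcl, -0.15 for Ddit3, -0.11 for Rpl3 and -0.080 for Rps6. With the macrophage covariate the log2 fold change was 0.39 for Pparg, -0.0033 for Dgat2, 0.12 for Cox5a, -0.52 for Col4a1, -0.063 for Timp1, -0.23 for Srf, -0.12 for Vcl, -0.73 for Isg15, -0.089 for Ddit3 and -0.052 for Rpl3. With array weights the log2 fold change was -0.013 for Ddit3. With edgeR the log2 fold change was -0.14 for Dgat2, -0.045 for Mrpl12, -0.074 for Srf, -0.083 for Vcl, -0.14 for Ddit3, -0.11 for Rpl3 and -0.079 for Rps6. With DESeq2 the log2 fold change was -0.12 for Dgat2, -0.026 for Mrpl12, -0.056 for Srf, -0.065 for Vcl, -0.13 for Ddit3, -0.087 for Rpl3 and -0.060 for Rps6. Leaving out 1 mouse gave -0.13 to 0.041 for Pparg, -0.087 to 0.19 for Dgat2 and -0.043 to 0.058 for Ddit3. The cause of these changes was not tested. Counting error limits genes near 1 read (0.0668 to 0.0764 CPM) most, and genes under the level filter were given as values alone, apart from Mcpt4, Cpa3 and Cma1. The adjusted p values of these genes come from the fit without a filter, and the genes were chosen after their values were seen.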

Other observations

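Mast cell proteases and a few low genes of other cell types parted the diets below the level that was tested. Mcpt4, a chymase of connective tissue mast cells, had no read in at least 3 CD mice and at most 0.420 CPM in any CD mouse, and it was at 2.35 to 12.8 CPM (median 5.34) in HFD mice. Cpa3, the mast cell carboxypeptidase, was at 0.210 CPM or less in CD mice and at 2.14 to 12.5 CPM in HFD mice, and Cma1, another chymase, at 0.378 CPM or less and at 1.80 to 11.2 CPM. In the limma fit without a filter their adjusted p was 1.9e-05, 2.9e-05 and 3.7e-05. Kit, the receptor that mast cells need, did not pass the test (log2 fold change -0.13), and the neutrophil marker Ly6g had no read in any of the 12 mice. S100a8, on the marker list of mast cells and granulocytes, rose (log2FC 0.76 ± 0.23, adjusted p = 0.011). Elane, on the same list and below the level tested, went the other way. It was at 1.40 to 6.18 CPM in CD mice and at 0.138 to 1.13 CPM in HFD mice. Pi16 and Thy1, surface markers of fibroblast progenitors and of stromal and T cells, were at 0.0736 to 1.40 CPM and 0.0736 to 1.04 CPM in CD mice and at 1.21 to 9.94 CPM and 1.49 to 8.59 CPM in HFD mice. Cd22, a lectin known from B cells, rose to 8.57 to 17.1 CPM in HFD mice from at most 3.71 CPM in CD mice, while the B cell genes Cd79a and Ms4a1 stayed at 0.512 CPM or less in every mouse.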
